A study of Mus musculus with 27 samples.

Results

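Expression of 7 genes of the insulin-like growth factor (IGF) axis was described across the maternal liver lobule: Igf1, Igfals, Igfbp1, Igfbp2, Igfbp3, Igfbp4 and Igf2r. The genes were taken by symbol from an expression table of 21823 genes, and the rule that names them uses no measured value, although it was written with earlier results of these data known. RNA had been sequenced from zones 1, 2 and 3 of the liver lobule, isolated by laser microdissection from wild-type female mice, C57BL/6 in the labels and C57BL/6N in the study's methods, that were non-pregnant (NP) or pregnant at 8 or 16 days post-coitum (dpc8 and dpc16). Each of the 9 groups of stage and zone held 3 libraries, 27 in all, and no group carried a transgene or a treatment. Zone 1 is the periportal end of the lobule, zone 3 the pericentral end and zone 2 the part between them. The labels do not say whether libraries with the same number came from the same mouse, so the p-values measure only the spread between these libraries. Each captured zone holds several cell types, and more cells of a type cannot be told apart from more RNA per cell.

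IGF-1 is a growth hormone-dependent peptide that reaches the blood mainly from hepatocytes. In plasma most of it circulates in a ternary complex with the binding protein IGFBP-3 and the acid-labile subunit encoded by Igfals, which prolongs its life, while IGFBP-1, IGFBP-2 and IGFBP-4 form smaller complexes that can reach the tissues. Igf2r encodes the cation-independent mannose 6-phosphate receptor, which carries lysosomal enzymes and takes up IGF-2 for degradation.

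In GRCm38 coordinates, Igf1 lies on chr10:87858265-87937042 and Igfbp2 on chr1:72824503-72852474. Igfals (chr17:24865997-24882010) and Igf2r (chr17:12682406-12769664) share a chromosome. Igfbp1 (chr11:7197782-7202546, plus strand) and Igfbp3 (chr11:7206086-7213923, minus strand) lie close together and face each other with their 3′ ends, and Igfbp4 lies farther along at chr11:99041244-99054392. No annotated exon of the 7 genes overlapped an exon of another gene. Stretches of RefSeq promoter windows (GRCm38.p6, plus strand, 250 bases before to 50 bases after a start) are shown for the 3 members in which a searched motif was found, with the motif in capitals.

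Igfbp1, chr11:7197639-7197726: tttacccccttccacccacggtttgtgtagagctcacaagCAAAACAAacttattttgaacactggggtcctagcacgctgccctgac

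Igfals, chr17:24878133-24878221: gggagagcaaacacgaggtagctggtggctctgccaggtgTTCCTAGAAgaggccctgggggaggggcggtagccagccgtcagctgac

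Igfbp4, chr11:99041176-99041243: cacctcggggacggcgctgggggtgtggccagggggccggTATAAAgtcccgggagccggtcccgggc

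Motifs were searched only in the 250 bases before a start, in the windows of the members and in all others. The letters CAAAACAA, the core of the insulin response element for which the Igfbp1 promoter is known, were searched on both strands and occurred 108 bases before the Igfbp1 start, in none of the windows of the other 6 genes and in 2.21% of 32851 promoter windows. The STAT5-type pattern TTCNNNGAA, which reads the same on both strands, occurred in 2 of the 3 Igfals windows and in 7.02% of all windows. The TATA box letters TATAAA, searched on both strands, occurred 28 bases before the Igfbp4 start and in 12.4% of all windows. A match is a description of the letters and not a test of binding.

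The levels are FPKM, mapped fragments scaled for transcript length and for the depth of the library, so genes can be compared per length. The depth behind them, estimated from the step between low values, was 7287000 to 32290000 reads per library. Marker genes of the zones followed the labels. The summed FPKM of 10 periportal genes was 4521 to 9579 in zone 1 and 297 to 2745 in zone 3, and that of 10 pericentral genes was 243 to 466 in zone 1 and 6847 to 18330 in zone 3. In 6 libraries, all labelled female, 4 Y-linked genes summed to 7.92 to 23.2 FPKM, against 0 to 2.97 in the other 21. These were replicate 1 of NP zone 1, replicate 2 of NP zone 3, replicate 1 of dpc8 zone 1, replicate 2 of dpc8 zone 2 and replicate 3 of dpc16 zones 2 and 3. In the same 6 libraries 10 connective tissue and smooth muscle genes summed to 903 to 4851 FPKM, against 15.2 to 582 in the others. The comparisons were therefore also run without them (n = 2 or 3 per group), and those values are given where stated. Within these libraries Igfbp4 and Igfals were the lowest of their group in 6 of 6, Igf1, Igfbp2 and Igfbp3 in 4 of 6 and Igfbp1 in 2 of 6. Igf2r was the highest of its group in 5 of 6, Igfbp2 in 2 of 6 and Igfbp3 in 1 of 6. The part of this pattern in the results was not tested.

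Other cell type markers also moved with the groups. The summed FPKM of 8 hepatocyte genes was 65510 to 280400 at dpc16 and 49370 to 129900 in NP and dpc8 livers. Outside the 6 libraries it did not overlap, at 193900 to 280400 in 7 dpc16 libraries against 53930 to 129900 in the others. The sum over all genes moved in the same way, at 834568 to 988500 FPKM against 567659 to 704327 outside the 6 libraries. The summed FPKM of 8 Kupffer cell and macrophage genes was 34.3 to 82.1 in dpc16 zone 3, below 127 to 186 in dpc16 zone 1, 103 to 138 in NP zone 3 and 157 to 227 in dpc8 zone 3. The sum of 8 stellate cell genes was lower in zone 1 than in zone 3 without overlap at each stage, at 187 to 205 and 212 to 304 at dpc16. That of 6 biliary genes was 40.8 to 166 in zone 1, and in zone 3 it was 0.0884 to 25.5 outside the 6 libraries, with Krt7 listed at 0 in 12 of 27 libraries and Cldn7 in 16. The sum of 8 sinusoidal endothelial genes was 83.3 to 238 over all libraries. The part of these markers in the differences between zones and stages was not tested.

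**Figure D1:**
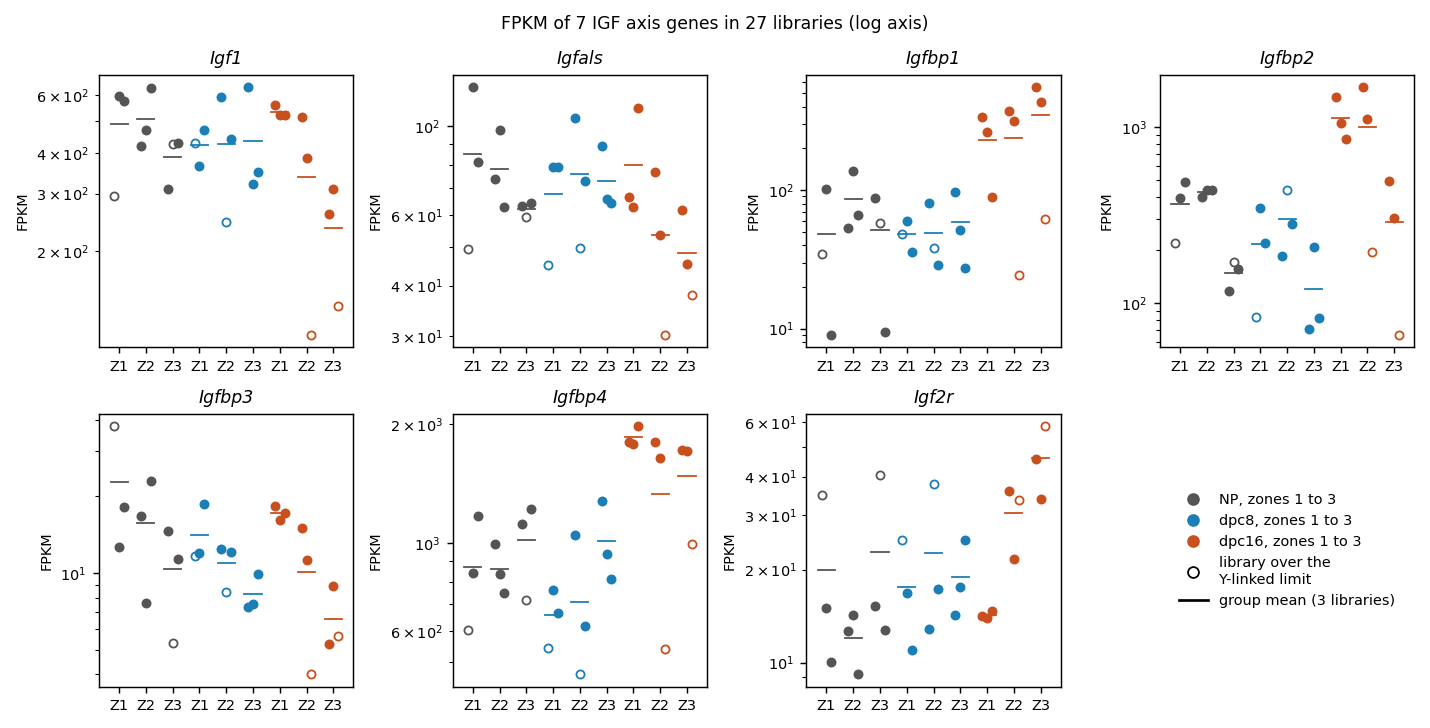
FPKM (log axis) of the 7 genes in each library, by stage (NP grey, dpc8 blue, dpc16 orange) and zone (Z1 to Z3). Points are libraries, bars are group means of 3, and open circles are the 6 libraries with Y-linked FPKM. Igfbp2 and Igfbp4 reached their highest values at dpc16, and the open circles lay low for Igfbp4 and high for Igf2r.

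All 7 genes were at or above 3.99 FPKM in every library and all 7 entered the tests. Igfbp4 was the highest of the 7 in 27 of 27 libraries, at 466 to 1977 FPKM. The second place was held by Igf1 in 18 libraries, by Igfbp2 in 7 and by Igfbp1 in 2. Igfbp1 had the widest range, 61.8-fold between its lowest and highest library, followed by Igfbp2 with 25.7-fold, and Igfals had the narrowest with 4.15-fold. When the 9 group means of a gene were put in order, neighbours overlapped in their library values in 8 of 8 cases for each of 6 genes and in 7 of 8 for Igfbp4. The pair without overlap was dpc16 zones 1 and 3 of Igfbp4.

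Igf1, the ligand, overlapped between zones in NP and dpc8 livers, and at dpc16 its zone 1 values lay above those of zones 2 and 3, which overlapped. In NP livers Igf1 was 294, 598 and 578 FPKM in zone 1, 419, 471 and 633 in zone 2, and 310, 424 and 430 in zone 3. In dpc8 livers it was 429, 365 and 471 FPKM in zone 1, 592, 246 and 440.0 in zone 2, and 637, 320 and 349 in zone 3. Zones 1 and 3 overlapped at both stages. At dpc16 Igf1 was 560, 522 and 523 FPKM in zone 1, 515, 386 and 111 in zone 2, and 260, 311 and 135 in zone 3. Here every zone 1 library lay above every library of the other zones, and the lowest value of all 27 belonged to a dpc16 zone 2 library with Y-linked FPKM. The zone 1 minus zone 3 difference in log2(FPKM + 1) at dpc16 was 1.26 ± 0.45 (SE, n = 3 per group) with a 95% interval of 0.33 to 2.2, which did not pass (limma adjusted p = 0.287). With the replicate number within the stage as a block the same difference passed (limma adjusted p = 0.0467, range over the alternatives 0.0467 to 0.864). It passed under only 1 of 36 alternatives, and in 0 of 27 fits that each left out a library. Without the 6 libraries the dpc16 difference did not pass. Averaged over the stages the zone 1 minus zone 3 difference was 0.52 (95% interval 0.06 to 0.98, limma adjusted p = 0.190). This averaged difference was 0.54 without the 6 libraries, where it passed (limma adjusted p = 0.0200, range over the alternatives 0.0110 to 0.366). Relative to the albumin gene Alb, Igf1 was lower in each dpc16 library than in any other, at 1.89 to 3.45 Igf1 FPKM per 1000 Alb FPKM against 6.02 to 23.0 in NP and dpc8 livers. Alb itself was 41790 to 203700 FPKM at dpc16 and 22400 to 84390 in the other stages, so the denominator moved. Over the 27 libraries log2 Igf1 had a Pearson correlation of 0.66 with the mean log2 level of the Kupffer cell and macrophage genes, which were also low in dpc16 zone 3, and of 0.51 over the 21 libraries. For the periportal hepatocyte genes these correlations were 0.52 and 0.635, and for the pericentral genes -0.27 and -0.57. For the sinusoidal endothelial genes they were 0.61 and 0.15.

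Igfals, the acid-labile subunit gene, ran from 30.1 to 125 FPKM with overlapping groups almost throughout. Its 3 dpc16 zone 1 libraries, at 66.5, 62.6 and 111 FPKM, lay just above the zone 3 libraries at 61.7, 45.2 and 37.9. The difference was 0.70 on the log2 scale, with a 95% interval of -0.05 to 1.44 (limma adjusted p = 0.703). The ratio of Igfals to Igf1 was 0.0993 to 0.280 over the 27 libraries, and the 9 groups had means of 0.150 to 0.221. Over the 27 libraries log2 Igfals and Igf1 had a Pearson correlation of 0.78, or 0.59 over the 21 libraries without Y-linked FPKM. The points share libraries and groups. The mean log2 level of the hepatocyte genes correlated with Igf1 at 0.40 over the 27 and 0.10 over the 21 libraries. With Igfals it was 0.31 and -0.24. The part of hepatocyte content was not tested.

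Igfbp3, the binding protein of the ternary complex, held places 5 to 7 among the 7 genes and was higher at the portal than at the central end. In NP livers it was 37.7, 12.6 and 18.2 FPKM in zone 1 and 14.6, 5.32 and 11.3 in zone 3. In dpc8 livers it was 11.6, 12 and 18.6 FPKM in zone 1 and 7.34, 7.55 and 9.86 in zone 3. At dpc16 it was 18.4, 16.1 and 17.2 FPKM in zone 1 and 5.24, 8.87 and 5.65 in zone 3. Zones 1 and 3 did not overlap at dpc8 and dpc16, and overlapped in NP livers, where the highest value came from a library with Y-linked FPKM. The NP difference was 1.02 on the log2 scale (95% interval 0.12 to 1.92, limma adjusted p = 0.502) and 0.22 without the 6 libraries. Averaged over the stages, Igfbp3 was higher in zone 1 than in zone 3 by 1.0 ± 0.21 (SE) on the log2 scale (limma adjusted p = 0.0033), with group means of 18.0 and 8.41 FPKM. Without the 6 libraries the difference was 0.79 (limma adjusted p = 0.0124, range over the alternatives 0.000474 to 0.0163). Its Pearson correlation with the Kupffer cell and macrophage genes was 0.52, and 0.42 over the 21 libraries. For the periportal hepatocyte genes it was 0.66 in both sets of libraries, and for the pericentral genes -0.55 and -0.66. Between averaged zones 1 and 2 the difference was 0.56 (95% interval 0.12 to 1.0, limma adjusted p = 0.355). It passed under 0 of 37 alternatives, over which it ran from 0.26 to 0.68.

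Igfbp1, the binding protein whose gene insulin represses, varied most between libraries of a group. In NP livers it was 34.3, 101 and 8.99 FPKM in zone 1, 53.4, 138 and 66.2 in zone 2, and 88.3, 57.7 and 9.38 in zone 3. In dpc8 livers it was 48.1, 60.2 and 35.9 FPKM in zone 1, 80.3, 38.3 and 28.6 in zone 2, and 97.0, 51.2 and 27.4 in zone 3. At dpc16 it was 336, 261 and 88.5 FPKM in zone 1, 373, 316 and 24.3 in zone 2, and 555, 429 and 61.9 in zone 3. Replicates 1 and 2 at dpc16 lay above every NP and dpc8 library in each zone, and replicate 3 lay lowest in each zone. Averaged over the zones, Igfbp1 was higher at dpc16 than in NP livers by 2.05 ± 0.62 (SE) on the log2 scale, with means of 272 and 61.9 FPKM (limma adjusted p = 0.0481). This call was kept in 5 of 27 fits that each left out a library. Its fit used a correlation of 0.193 between same-numbered libraries of a stage. At dpc16 such libraries correlated at 0.263 to 0.863, so the SE may be too small. Without the 6 libraries the difference was 2.76 (limma adjusted p = 0.00614, range over the alternatives 0.000582 to 0.114). Within single zones the difference between dpc16 and NP passed in no zone, with 2.59 in zone 1 (95% interval 0.49 to 4.70, limma adjusted p = 0.300) and 2.70 in zone 3 (95% interval 0.60 to 4.81, limma adjusted p = 0.247). In zone 2 the libraries overlapped, with means of 237.5 and 85.8 FPKM. Over the alternatives the zone 1 difference was 1.73 to 3.41 and passed under 1 of 35 (limma adjusted p 0.0346 to 0.702). The zone 3 difference was 1.77 to 4.01. The zone 3 value was 4.01 without the 6 libraries and passed (limma adjusted p = 0.0404, range over the alternatives 0.00733 to 0.636). Against dpc8 the difference was 2.23 in zone 3 (95% interval 0.13 to 4.33, limma adjusted p = 0.357). Averaged over the zones it was 1.98 against dpc8 (95% interval 0.70 to 3.27, limma adjusted p = 0.0602), and 2.57 without the 6 libraries, where it passed (limma adjusted p = 0.00919, range over the alternatives 0.000347 to 0.110).

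Igfbp2, a binding protein made by hepatocytes, was both zonated and higher late in gestation. In NP livers it was 219, 394 and 486 FPKM in zone 1, 403, 438 and 438 in zone 2, and 117, 172 and 157 in zone 3. In dpc8 livers it was 83.8, 348 and 219 FPKM in zone 1, 184, 437 and 281 in zone 2, and 71.6, 208 and 82.3 in zone 3. At dpc16 it was 1478, 1056 and 856 FPKM in zone 1, 1689, 1116 and 194 in zone 2, and 496, 306 and 65.9 in zone 3. Zone 3 was lowest by its mean at each stage, and the dpc16 zone 1 libraries lay above every NP and dpc8 library. Averaged over the stages, zone 1 exceeded zone 3 by 1.46 ± 0.33 (SE) on the log2 scale (limma adjusted p = 0.00577) and zone 2 exceeded zone 3 by 1.55 ± 0.33 (limma adjusted p = 0.00743). The group means were 571, 576 and 186 FPKM in zones 1, 2 and 3. Averaged over the zones, dpc16 exceeded dpc8 by 1.64 ± 0.43 (SE) with means of 806 and 213 FPKM (limma adjusted p = 0.0242), and a difference from NP of 0.99 with a 95% interval of 0.09 to 1.89 did not pass (limma adjusted p = 0.211). Without the 6 libraries both differences were larger, at 2.11 against dpc8 (limma adjusted p = 2.65e-05, range over the alternatives 2.65e-05 to 0.0712) and 1.5 against NP (limma adjusted p = 0.000706, range over the alternatives 0.000706 to 0.388). Over the 21 libraries log2 Igfbp2 had a Pearson correlation of 0.87 with the mean log2 level of the hepatocyte genes, whose sums at dpc16 and at the other stages did not overlap in these libraries. In zone 1 alone the dpc16 minus dpc8 difference was 2.56 with a 95% interval of 1.10 to 4.02 (limma adjusted p = 0.0619), and 1.99 without the 6 libraries, where it passed (limma adjusted p = 0.00587, range over the alternatives 0.00587 to 0.273). Against NP it was 1.66 in zone 1 (95% interval 0.20 to 3.12, limma adjusted p = 0.357). In NP livers zone 2 lay above zone 3 without overlap, by 1.53 (95% interval 0.07 to 2.99, limma adjusted p = 0.665).

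Igfbp4, an inhibitory binding protein that is cleaved by the protease PAPP-A, was the most abundant transcript of the 7. In NP livers it was 604, 843 and 1169 FPKM in zone 1, 997, 836 and 750 in zone 2, and 1120, 719 and 1223 in zone 3. In dpc8 livers it was 544, 762 and 667 FPKM in zone 1, 1049, 466 and 616 in zone 2, and 1279, 939 and 814 in zone 3. At dpc16 it was 1803, 1783 and 1977 FPKM in zone 1, 1803, 1646 and 540 in zone 2, and 1720, 1716 and 997 in zone 3. All dpc16 libraries outside the 6 lay above every NP and dpc8 library, and the low dpc16 values of zones 2 and 3 belonged to the libraries with Y-linked FPKM. In zone 1 Igfbp4 rose from dpc8 to dpc16 by 1.51 ± 0.39 (SE, n = 3 per group) on the log2 scale, with a 95% interval of 0.70 to 2.32 (limma adjusted p = 0.0463, beside 2.01% of tested genes that passed), and group means went from 658 to 1854 FPKM. The call was kept in 9 of 27 fits that each left out a library, in none of those that left out any of the 6 libraries compared, and without the 6 libraries (1.38, limma adjusted p = 0.00134, range over the alternatives 0.00134 to 0.166). It was lost with quantile normalization, where the difference was 0.86 (limma adjusted p = 0.109), and without the filter on low values (limma adjusted p = 0.0592). Averaged over the zones Igfbp4 rose by 0.95 ± 0.27 (SE) between these stages (limma adjusted p = 0.0363), kept in 16 of 27 such fits. Against NP the averaged difference was 0.71 with a 95% interval of 0.15 to 1.26 (limma adjusted p = 0.132). It was 0.83 without the 6 libraries and passed (limma adjusted p = 0.00101, range over the alternatives 0.00101 to 0.346, with 5 of 36 past the threshold). It also passed with the replicate block over all libraries (limma adjusted p = 0.0459). That block takes numbers as shared between stages, where same-numbered libraries had median correlations of 0.01, -0.035 and 0.066 in zones 1, 2 and 3. In zone 1 alone the difference from NP was 1.14 (95% interval 0.33 to 1.95, limma adjusted p = 0.195), and 0.53 with quantile normalization. Its Pearson correlation with the hepatocyte genes was 0.77 over the 21 libraries. Its differences between zones passed at no stage, and that between zones 1 and 3 was 0.37 at dpc16 with a 95% interval of -0.44 to 1.2.

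Igf2r, the receptor, had its highest group means in zones 3 and 2 at dpc16. In NP livers it was 34.9, 15.0 and 10.0 FPKM in zone 1, 12.6, 14.2 and 9.16 in zone 2, and 15.3, 40.4 and 12.8 in zone 3. In dpc8 livers it was 24.9, 16.8 and 11 FPKM in zone 1, 12.8, 37.8 and 17.3 in zone 2, and 14.3, 17.5 and 25.0 in zone 3. At dpc16 it was 14.2, 13.9 and 14.6 FPKM in zone 1, 35.9, 21.7 and 33.7 in zone 2, and 45.6, 33.9 and 58.2 in zone 3. At dpc16 every zone 1 library lay below every zone 2 and zone 3 library. The zone 1 minus zone 3 difference was -1.59 ± 0.44 (SE, n = 3 per group) on the log2 scale with a 95% interval of -2.50 to -0.68 and did not pass (limma adjusted p = 0.0823). Without the 6 libraries it was -1.40 and passed (limma adjusted p = 0.0111, range over the alternatives 0.00973 to 0.332). Between zones 1 and 2 at dpc16 it was -1.01 (95% interval -1.92 to -0.10, limma adjusted p = 0.871). Between dpc16 and NP livers Igf2r differed by 1.26 in zone 2, without overlap (95% interval 0.35 to 2.17, limma adjusted p = 0.136), and by 1.13 in zone 3, with overlap (95% interval 0.21 to 2.04, limma adjusted p = 0.277), and neither passed. Each passed under 1 of 35 alternatives, the fit without the 6 libraries, at 1.17 in zone 2 (limma adjusted p = 0.0279, range over the alternatives 0.0279 to 0.337) and 1.43 in zone 3 (limma adjusted p = 0.0196, range over the alternatives 0.0196 to 0.622). Against dpc8 the zone 3 difference was 1.24, without overlap (95% interval 0.32 to 2.15, limma adjusted p = 0.192). It was 1.05 without the 6 libraries (limma adjusted p = 0.0540) and passed under 1 of 35 alternatives, array weights (range over the alternatives 0.0215 to 0.478). The averaged differences were 0.70 between dpc16 and NP (95% interval 0.07 to 1.34, limma adjusted p = 0.207) and -0.64 between zones 1 and 3 (95% interval -1.12 to -0.15, limma adjusted p = 0.109). Both passed without the 6 libraries, at 0.92 (limma adjusted p = 0.00444, range over the alternatives 0.00444 to 0.330) and -0.69 (limma adjusted p = 0.0075, range over the alternatives 0.0075 to 0.236), and under 2 of 36 and 3 of 37 alternatives in all. The Pearson correlation of Igf2r with the Kupffer cell and macrophage genes was -0.62, and -0.50 over the 21 libraries. For the periportal hepatocyte genes it was -0.50 and -0.46, and for the pericentral genes 0.32 and 0.43. Whether the change from NP differed between zones 1 and 3 was tested directly, and the difference of -1.41 with a 95% interval of -2.70 to -0.11 did not pass (limma adjusted p = 0.993). The same test between zones 1 and 2 gave -1.54 (95% interval -2.83 to -0.25, limma adjusted p = 0.782).

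**Figure D2:**
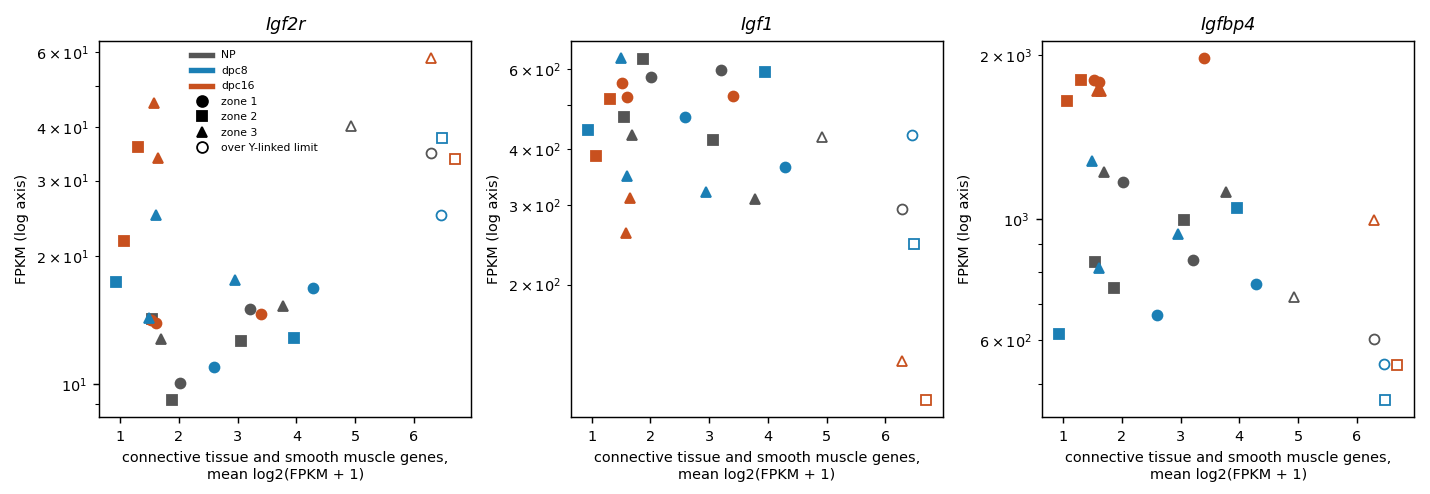
FPKM (log axis) of Igf2r, Igf1 and Igfbp4 against the mean log2(FPKM + 1) of 10 connective tissue and smooth muscle genes, 1 point per library, by stage (colour), zone (shape) and Y-linked FPKM (open symbols). The 6 open symbols lie at 4.93 to 6.69 on the horizontal axis and the 21 filled ones at 0.93 to 4.29. Igf2r is at 24.9 FPKM or more in every open symbol.

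The plot of these 3 genes against the connective tissue genes shows how far the 6 libraries stand apart. The filled dpc16 points of zones 2 and 3, all outside the 6 libraries, lie at 21.7 to 45.6 FPKM for Igf2r.

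Counted together, the FPKM of Igfbp1, Igfbp2, Igfbp3 and Igfbp4 summed to 895 to 1682 in NP zone 1, 687 to 1181 in dpc8 zone 1 and 2938 to 3635 in dpc16 zone 1. Divided by the Igf1 FPKM of the same library, the sum was 1.60 to 4.33 over the 18 NP and dpc8 libraries. At dpc16 it was 5.62 to 6.50 in zone 1, 6.89 to 8.01 in zone 2 and 7.92 to 10.7 in zone 3. All 9 dpc16 libraries, the 2 with Y-linked FPKM among them, thus had more binding protein transcript per Igf1 transcript than any of the other 18, and the 3 zones did not overlap at dpc16 except for neighbouring values of zones 2 and 3. This ratio was formed after the values were seen and carries no test. The separation is not particular to the binding proteins. Alb showed it too, with 1.89 to 3.45 Igf1 FPKM per 1000 Alb FPKM at dpc16 against 6.02 to 23.0 in NP and dpc8 livers.

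**Figure D3:**
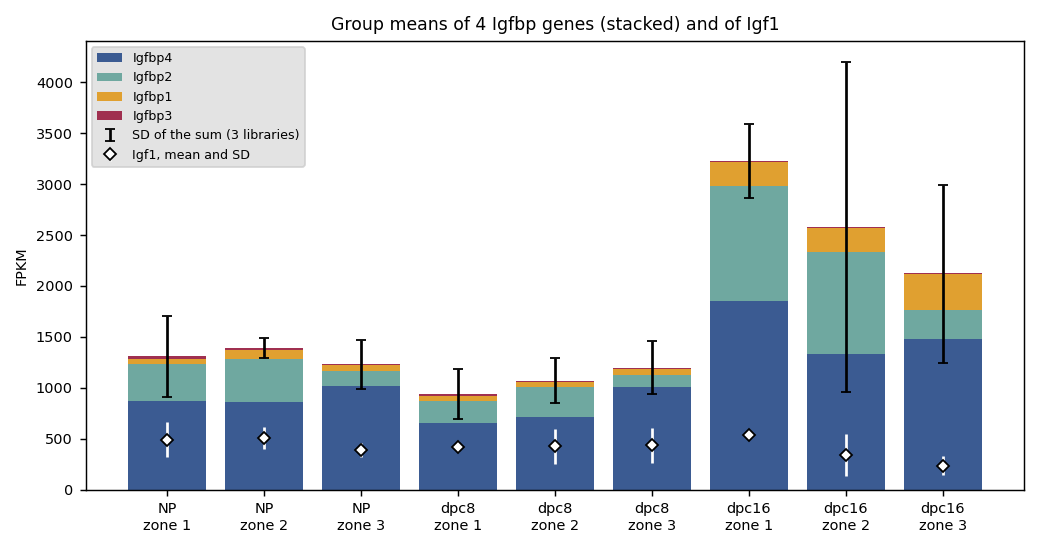
Group means of Igfbp4, Igfbp2, Igfbp1 and Igfbp3 in FPKM, stacked, with the SD of their sum over 3 libraries (black bars), and the mean and SD of Igf1 (white diamonds and bars). The summed mean is 3230 FPKM in dpc16 zone 1 against 1309 in NP zone 1, while Igf1 means stay between 235 and 535 FPKM.

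The planned comparisons asked which members differed between zones within a stage and between stages within a zone. Between zones 1 and 3, 0 of 21 pairs of gene and stage passed by limma, with 5 of 21 at an unadjusted p under 0.05, beside 1.5% and 9.36% of all pairs of tested genes. At dpc16, 6 of the 7 genes had no overlap between zones 1 and 3, Igfbp1 being the exception, beside 14.7% of tested genes. In NP livers it was 1 of 7 (Igfbp2, higher in zone 1, beside 12.7%) and at dpc8 it was 2 of 7 (Igfbp3 higher and Igfbp4 lower in zone 1, beside 23.2%). With the replicate number within the stage as a block, Igf1, Igfbp2 and Igfbp3 were higher in zone 1 than in zone 3 at dpc16, beside 2.65% of tested genes that passed in either direction. For Igfbp2 the difference was 2.34 (limma adjusted p = 0.129 with no block and 0.00096 with it, range over the alternatives 0.00096 to 0.690) and for Igfbp3 it was 1.30 (limma adjusted p = 0.224 with no block and 0.0322 with it, range over the alternatives 0.0303 to 0.532). Without replicate 3 of dpc16 zone 3 the Igfbp2 difference was 1.5 (limma adjusted p = 0.690). When the 6 libraries were left out, 2 of 21 pairs passed between zones 1 and 3, beside 2.42% of all pairs, and both were at dpc16 (Igfbp2 and Igf2r, beside 2.71% of tested genes at that stage). The comparisons of the middle zone gave 0 of 42 calls by limma, with 3 of 42 at an unadjusted p under 0.05, beside 0.281% and 4.89% of all pairs. In the block fit Igfbp2 was higher in zone 2 than in zone 3 at dpc16 (1.72, limma adjusted p = 0.937 with no block and 0.0334 with it, range over the alternatives 0.0334 to 1, beside 0.857% of tested genes). That difference ran from 0.88 to 2.66 over the alternatives and passed under 2 of 36.

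Between dpc8 and NP, 0 of 21 pairs of gene and zone passed by limma and 0 of 21 had an unadjusted p under 0.05, beside 0.018% and 3.65% of all pairs. Between dpc16 and NP, 0 of 21 passed by limma and 6 of 21 had an unadjusted p under 0.05, beside 1.78% and 13% of all pairs, and without the 6 libraries 6 of 21 passed, beside 3.66%. Between dpc16 and dpc8, 1 of 21 passed and 4 of 21 had an unadjusted p under 0.05, beside 1.63% and 12.7%, and without the 6 libraries 5 of 21 passed, beside 4.05%. These comparisons share the dpc16 libraries. The change from NP was set against itself between zones in 42 pairs, of which 0 passed by limma and 2 had an unadjusted p under 0.05, beside 0.0116% and 2.88% of all pairs. Averaged over the stages, 3 of 21 pairs passed between zones, beside 4% of all pairs, and averaged over the zones 3 of 21 passed between stages, beside 4.34%. Without the 6 libraries these counts were 5 and 8 of 21, beside 5.66% and 8.1%, with Igf1 and Igf2r added between zones 1 and 3.

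**Figure D4:**
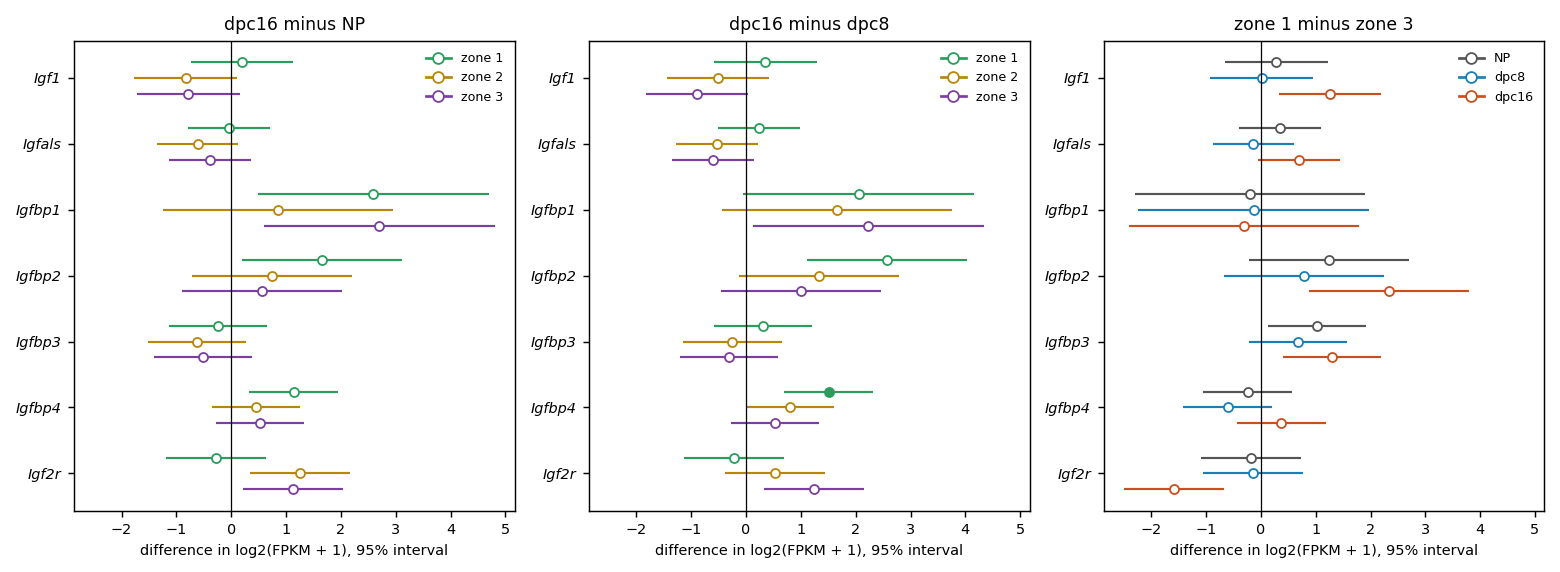
Differences in log2(FPKM + 1) for the 7 genes between dpc16 and NP, between dpc16 and dpc8 (each by zone) and between zones 1 and 3 (by stage), with 95% intervals from limma over all 27 libraries. Filled points passed at an adjusted p of 0.05. The only filled point is Igfbp4 between dpc16 and dpc8 in zone 1, at 1.51.

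Of 30 other genes of the pathway, 27 were tested, and 2, 3 and 2 of them passed between dpc16 and NP in zones 1, 2 and 3, beside 1.37%, 2.66% and 1.32% of all tested genes. The growth hormone receptor gene Ghr and the prolactin receptor gene Prlr were the genes that rose at dpc16 in every zone. Ghr went from means of 171, 213 and 280 FPKM in NP zones 1, 2 and 3 to 2077, 1602 and 1533 FPKM at dpc16, with log2 differences of 3.62, 2.75 and 2.42 (limma adjusted p = 5.57e-07, 3.26e-05 and 0.000148). Prlr, through which placental lactogens act, went from 211, 317 and 349 FPKM to 2147, 1740 and 1749 FPKM, with log2 differences of 3.42, 2.27 and 2.28 (limma adjusted p = 6.97e-06, 0.00117 and 0.00127). Fitted on the 6 libraries compared alone, the zone 2 differences did not pass (limma adjusted p = 0.112 for Ghr and 0.241 for Prlr, the highest of their 35 alternatives, with lowest values of 3.73e-09 and 2.82e-08). Both also passed against dpc8 in each zone, where the Ghr call of zone 2 was kept under 34 of 35 alternatives and the Prlr calls of zones 2 and 3 under 31 and 30 of 35. Fitted on the groups compared alone, the Ghr difference of zone 2 did not pass there either (limma adjusted p = 0.202, range over the alternatives 2.78e-09 to 0.202). Nor did the Prlr differences of zone 2 (limma adjusted p = 0.554, range 3.01e-06 to 0.554) and zone 3 (limma adjusted p = 0.0508, range 3.16e-07 to 0.111). Stat5a, a transducer of both receptors, fell in zone 2 from 7.47 to 3.03 FPKM (log2 difference -1.05, limma adjusted p = 0.0464). The Stat5a difference was -1.14 without the 6 libraries and did not pass (limma adjusted p = 0.0597), and the call was kept under 14 of 35 alternatives (0.00815 to 0.415).

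Averaged over the zones, Socs2, a feedback inhibitor of growth hormone signalling, rose from 18.0 to 32.6 FPKM between NP and dpc16 (limma adjusted p = 0.0437), a call kept under 15 of 36 alternatives (0.00273 to 0.104) and without the 6 libraries. Stat5b fell from 17.1 to 10.1 FPKM (limma adjusted p = 0.0484), kept under 12 of 36 alternatives (0.00368 to 0.0967) and without the 6 libraries. Averaged over the stages, Irs1, an adaptor of the insulin and IGF-1 receptors, was lower in zone 1 than in zone 3 (5.29 and 9.04 FPKM, limma adjusted p = 0.0131). The Irs1 call was kept under 35 of 37 alternatives and lost with the replicate number over all stages as a block (limma adjusted p = 0.0514) and with no correlation within a stage and number (0.0536), with a range of 0.000181 to 0.0536. With the block within the stage it was kept (limma adjusted p = 0.00393). Socs2 was 21 FPKM in zone 2 and 34.4 in zone 3, a difference that passed narrowly (limma adjusted p = 0.0494) and was kept under 9 of 37 alternatives (0.0164 to 0.156). It was lost in the fit without the 6 libraries (0.0563) and with the replicate block over all stages (0.156) or within the stage (0.0518).

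The genes whose log2(FPKM + 1) ran most like a member over the 27 libraries were named by their Pearson correlation, as a description. For Igf1 they were Mup3 (0.89), Marc1 (0.89) and Kmo (0.89), and for Igfals H2-Q10 (0.88), Fgfr4 (0.88) and Cpn2 (0.86). For Igfbp1 they were Ldha (0.88), Cyp4a32 (0.87) and H6pd (0.86), and for Igfbp2 Hsd11b1 (0.87), Rasgef1b (0.87) and Gss (0.84). For Igfbp4 they were Fetub (0.94), F5 (0.94) and F2 (0.92), which encode plasma proteins made by hepatocytes. The likeness was lower for Igfbp3, with Ltbp4 (0.79), Tbc1d30 (0.76) and Lrp6 (0.75), and for Igf2r, with Ski (0.78), Pum2 (0.76) and Cep170b (0.76). Mup3, H2-Q10 and Cyp4a32 belong to families of near-identical genes, and their reads may be shared with relatives.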

How the data were processed

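Areas of laser-microdissected zones had been made into ribosomal RNA-depleted libraries and sequenced as single-end reads. Per the labels and the study's methods, the authors trimmed reads with cutadapt 1.18, aligned them to mm10 with HISAT2 2.1.0 and the GENCODE vM22 annotation, kept uniquely mapped reads and ran Cuffdiff (Cufflinks 2.2.1). The processed table of the authors holds 1 FPKM column per library, scaled for transcript length and mapped fragments, and reads were not used here. Whether counting used strand is not given in the sources used here. Because these are not counts, limma 3.58.1 in R 4.3.3 (trend and robust settings, two-sided) was fitted to log2(FPKM + 1), which understates changes of low genes, over 12952 genes with at least 1 FPKM in at least 3 of 27 libraries, with a mean per group and Benjamini-Hochberg adjustment within each contrast at 0.05. The script was tested on simulated data. Cuffdiff, which works on reads, was not rerun.

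Depth was estimated from genes with a single transcript as the read number at which low values were whole reads, assuming a mean fragment length of 200 bases (94.6 to 100% whole within 0.1). It gives the order of depth and no interval. Zones averaged over stages and stages averaged over zones were compared in a fit that estimated a correlation of 0.193 between libraries of a stage that share a number. These averaged comparisons, and the fits without the 6 libraries whose 4 Y-linked genes (Ddx3y, Eif2s3y, Kdm5d, Uty) summed to over 5 FPKM, were added after seeing the data. The members and gene lists were chosen with earlier results of these data known. All 7 members were described, with folds for pairs past the threshold. Differences that did not pass were added as values where their unadjusted p was under 0.05, or where they stand beside such a pair. Other pathway genes were named where they passed, and 3 genes per member by likeness. Positions are from GENCODE vM21 (21609 of 21823 identifiers matched). The same numbers recur in the labels of all groups. The deviations of same-numbered libraries from their group means correlated above 0.1 in 9 of 9 pairs of zones at dpc16 (0.263 to 0.863). In NP and dpc8 livers this held for 4 and 5 of 9 pairs. Between stages it held for 4, 3 and 4 of 9 pairs in zones 1, 2 and 3. The main fit of single groups used no pairing, and the block within the stage had terms for every stage. The averaged fit applied its single correlation to same-numbered libraries of every stage, below the values seen at dpc16. Its SE between averaged stages may therefore be too small. A fit without this correlation was run as an alternative. Pairing came from these data, not from the labels. Alternatives were a pseudocount of 0.1, no filter, median-ratio and quantile scaling, only the groups compared, array weights, replicate blocks and each library left out. Markers of sinusoidal endothelium, Kupffer cells, stellate cells and biliary epithelium were also summed.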

Additional observations from a re-analysis of the deposited data

Results flagged for a closer look

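The log2 difference of Igf1 between dpc16 and dpc8 was 0.35 in zone 1, where all 3 dpc16 libraries lay above all 3 dpc8 libraries, and -0.90 in zone 3, where all 3 lay below. The log2 difference of Igfbp4 between zones 1 and 3 was -0.61 at dpc8, where all 3 zone 1 libraries lay below those of zone 3, and 0.37 at dpc16, where all 3 lay above. Both pairs are listed because the libraries did not overlap and lay in opposite directions. None of these differences passed by limma. Between dpc16 and dpc8, 19.9% and 23.3% of tested genes had no overlap in zones 1 and 3. Between zones 1 and 3 it was 23.2% at dpc8 and 14.7% at dpc16. With quantile normalization the zone 1 difference of Igf1 was -0.0086 and the dpc16 difference of Igfbp4 was 0.02. Whether the differences between the groups hold was not tested.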

How the results depend on the processing

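No difference that passed, or had an unadjusted p under 0.05, reversed its sign under any alternative. Between zones 1 and 3 the count of 0 became 1 with only the groups compared, 3 with array weights, 3 with the replicate block within stage, 2 when the 6 Y-linked libraries were dropped, and 0 to 1 with a library left out. For the middle zone the count of 0 became 1 with only the groups compared, 1 with array weights and 1 with the replicate block within stage. Between dpc16 and NP the count of 0 became 3 with array weights, 2 with the replicate block over all libraries (Igfbp1 in zones 1 and 3), 6 without the 6 libraries and 0 to 1 with a library left out. Between dpc16 and dpc8 the count of 1 became 0 without the filter, 0 with quantile normalization, 8 with array weights, 2 with the replicate block, 5 without the 6 libraries and 0 to 3 with a library left out. In the last range 3 were called without replicate 3 of dpc16 zone 2. The 3 calls between averaged zones became 5 with array weights and 5 without the 6 libraries. The 3 calls between averaged stages became 0 with only the groups compared, 7 with array weights, 5 with the replicate block, 8 without the 6 libraries, 5 with no correlation within a stage and number, and 1 to 6 with a library left out. Of these, 6 were called without replicate 3 of dpc16 zone 2, and 1 without replicate 1 or 2 of dpc16 zones 2 or 3, replicate 1 or 3 of dpc8 zone 1, or replicate 2 or 3 of dpc8 zones 2 or 3. The counts of 0 between dpc8 and NP and for changes between zones were 0 under every alternative run. The cause of these shifts was not tested. Igfbp2 and Igfbp3 between averaged zones 1 and 3 passed under 37 of 37 alternatives, Igfbp2 between averaged zones 2 and 3 under 36 of 37, Igfbp2 between averaged dpc16 and dpc8 under 35 of 36, Igfbp4 there under 24 of 36, and Igfbp1 between averaged dpc16 and NP under 11 of 36. The block within stage added calls only for Igf1, Igfbp2 and Igfbp3 between zones 1 and 3 and Igfbp2 between zones 2 and 3 at dpc16, and changed no other call among the members. It could not be fitted for comparisons between stages. Igfbp1 had the widest intervals, with an SE of 1.01 within single zones and stages. Quantile normalization moved the median difference of all tested genes by over 0.1 in 1 of the 30 contrasts, zones 1 and 3 at dpc8, from 0.08 to -0.04.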

Other observations

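The 6 libraries with Y-linked FPKM also held other IGF genes. Igf2, the fetal ligand, was 30.7 to 107 FPKM in 5 of the 6 and 2.15 in replicate 2 of dpc8 zone 2, and at most 6.03 in the other 21 libraries. Igf1r, the receptor of IGF-1, was 7.21 to 18.8 FPKM in the 6 libraries and at most 4.0 in the other 21. Outside the 6 libraries Igf1r was thus low in every zone and stage.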
